A study of Mus musculus with 5 samples.

Results

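The retinoid genes described here are 9 genes of vitamin A transport, retinoic acid synthesis, retinoic acid clearance and retinoic acid signalling, out of 18194 genes measured in mouse lung. They were taken as every probe set whose single gene symbol is Rbp4, Stra6, Rdh10, Aldh1a1, Aldh1a2, Aldh1a3, Cyp26b1, Crabp2 or Rarb, which gave 12 of 45101 probe sets. The set was chosen by the measured differences of Cyp26b1 between the arrays, and for the role of retinoids in alveoli, so the Cyp26b1 values are given below as a description.

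Whole-lung RNA of female mice was measured on 5 arrays, 1 for each strain. The 4B(-/-) and 4B(+/+) lines are knockout and wild type for the phosphodiesterase PDE4B, and the 4D(-/-) and 4D(+/+) lines are knockout and wild type for PDE4D. These 4 lines have a mixed C57BL/6 × 129/Ola origin and were crossed back to C57BL/6J for 11 generations or more, and C57 is C57BL/6J itself. All animals were naive and received no elastase. Each array holds a mixture of RNA from 3 of the 5 lungs taken per strain, so the spread between animals is lost, a whole lung mixes many cell types, and fewer cells of a type and less RNA per cell cannot be told apart. The sources used here do not state the animals' ages or which parts of the genes were deleted.

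Vitamin A circulates as retinol on retinol-binding protein and is turned into retinoic acid inside cells in 2 oxidation steps, first to retinal and then to the acid. Retinoic acid binds nuclear receptors of the RAR family, which act with RXR partners at response elements made of repeated hexamers, and enzymes of the CYP26 family hydroxylate it for removal. In the lung the pathway is known for its part in branching and in the formation of alveolar walls.

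Promoter stretches of 2 genes are shown, that of Cyp26b1 because this gene alone among the 9 stood apart between arrays, and that of Rarb because it holds a hexamer repeat of the kind retinoic acid receptors bind. Each is the 250 bases before the gene's start in RefSeq, build GRCm38.p6, read on the gene's own strand, with a match to the motif in capitals. Cyp26b1 lies on the minus strand at chr6:84593811-84594060 and Rarb on the minus strand at chr14:16575477-16575726.
Cyp26b1: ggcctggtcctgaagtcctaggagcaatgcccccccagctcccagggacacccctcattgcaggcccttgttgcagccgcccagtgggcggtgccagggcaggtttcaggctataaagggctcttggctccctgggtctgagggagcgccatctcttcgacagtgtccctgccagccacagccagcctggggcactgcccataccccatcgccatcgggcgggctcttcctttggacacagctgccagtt
Rarb: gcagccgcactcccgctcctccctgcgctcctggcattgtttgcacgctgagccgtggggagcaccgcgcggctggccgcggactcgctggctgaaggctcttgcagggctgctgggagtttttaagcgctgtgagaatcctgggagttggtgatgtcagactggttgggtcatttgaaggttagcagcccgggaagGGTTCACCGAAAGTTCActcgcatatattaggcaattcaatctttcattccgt

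The motif searched was a direct repeat of the hexamer AGGTCA, allowing G for the leading A and T for the G before the TCA, and with 1, 2 or 5 bases between the copies, on either strand. RefSeq promoters were at hand for 6 of the 9 genes, 11 stretches in all, and 1 of these held a match. It lies in the Rarb promoter, 53 to 37 bases before the start, with a spacing of 5 bases. Among all 32851 promoter stretches of the same length, 0.426% held a match with any of the 3 spacings and 0.0883% held one with a spacing of 5 bases. The 250 bases of Cyp26b1 do not hold these letters, which says nothing about sites elsewhere.

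The deposited values are linear intensities made by the authors with RMA, a method that equalises the arrays, according to the submitters' notes. Array medians lay between 45.4 and 46.6. Each gene is represented by its brightest probe set, and an intensity of 64 serves as the floor below which values are near background, which 11500 genes reached on at least 1 array. With 1 array per group there is no replicate and no test, and a gene is called higher or lower when 2 arrays differ by at least 1.5-fold. The targeted genes remained detectable in their knockouts. The brightest Pde4b probe set read 457 in 4B(-/-) and 558 in 4B(+/+), with 438 in C57. The 2 further Pde4b probe sets that reached the floor were lowest in 4B(-/-), at 397 against 461 to 490 elsewhere and at 164 against 199 to 258 elsewhere. The Pde4d probe set read 386 in 4D(-/-) and 523 in 4D(+/+), where a probe outside a deletion checks nothing.

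Of the 9 genes, 6 reached the floor, and each of these did so on all 5 arrays: Rbp4, Rdh10, Aldh1a1, Aldh1a2, Cyp26b1 and Rarb. Stra6, Aldh1a3 and Crabp2 stayed below it on every array. For 5 of the 6, all but Cyp26b1, the 5 arrays lay within 1.5-fold of each other. The same was true of 86.2% of all 11500 genes, so this evenness is shared with most of the lung transcriptome. Exact ties between arrays occurred in 6 of the 12 probe sets, and in 59.7% of all probe sets, and such ties set small differences to 0. The bar plot of the 9 genes shows the values array by array.

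**Figure D1:**
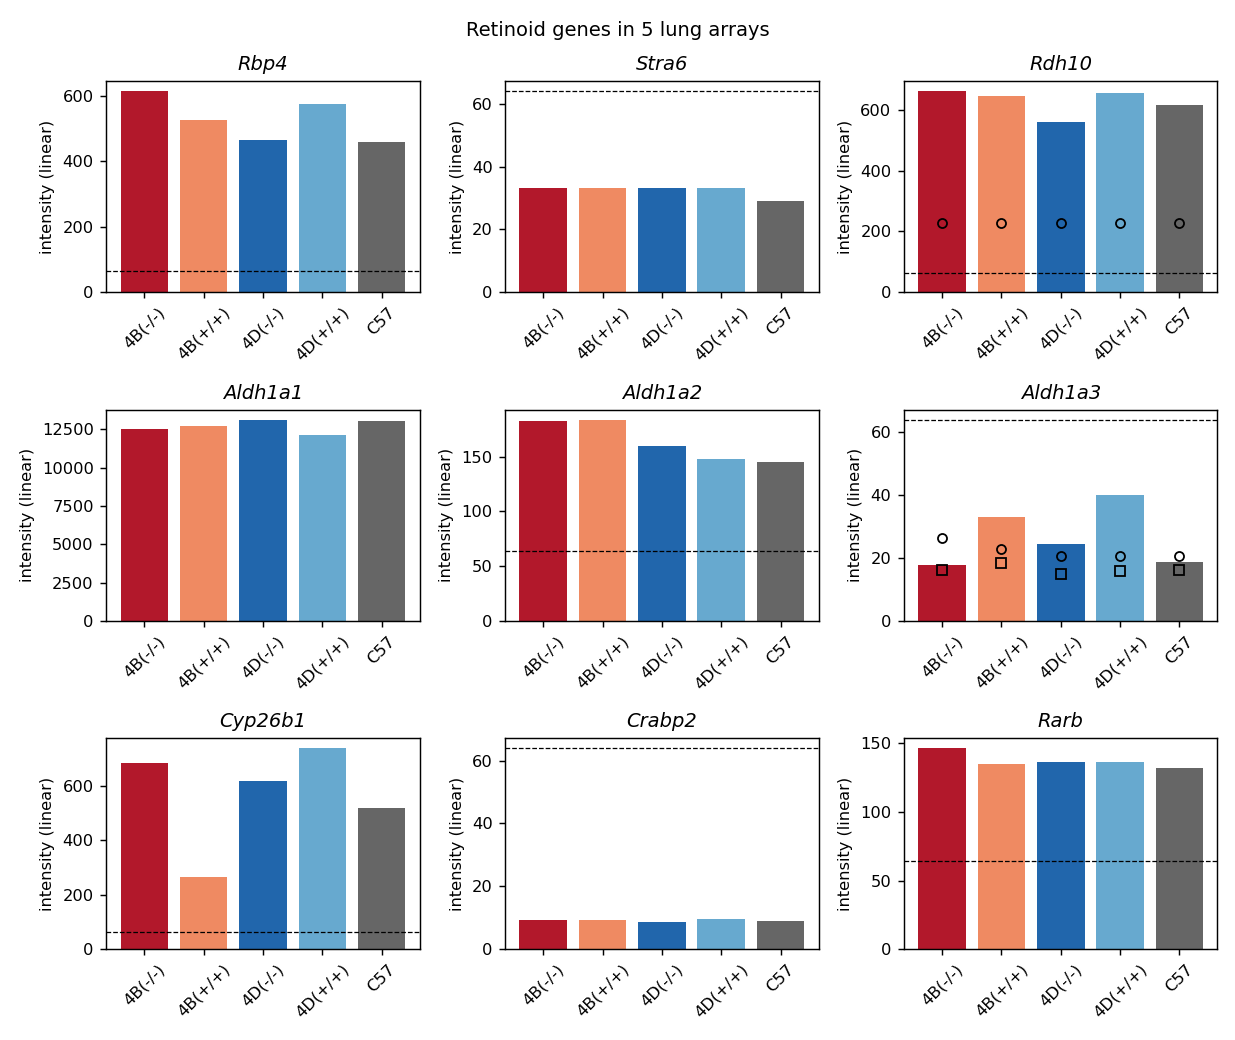
Linear intensity of the 9 retinoid genes on the 5 arrays (1 array of pooled RNA each, so there are no error bars). Bars give the brightest probe set, open circles and squares the other probe sets of Rdh10 and Aldh1a3, and the dashed line the floor of 64 (not drawn for Aldh1a1, far above it). Cyp26b1 reads 265 in 4B(+/+) and 519 to 739 on the other arrays, while Stra6, Aldh1a3 and Crabp2 lie under the floor.

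Among the genes of transport and uptake, Rbp4, the carrier of retinol in blood that liver and fat cells secrete, read 614 in 4B(-/-), 526 in 4B(+/+), 464 in 4D(-/-), 575 in 4D(+/+) and 457 in C57. It was lowest in C57 and 4D(-/-), and its highest array stood 1.34-fold above its lowest. Rbp4 was 1.17-fold higher in 4B(-/-) than in 4B(+/+) and 1.24-fold lower in 4D(-/-) than in 4D(+/+). Against C57 it was 1.15-fold higher in 4B(+/+) and 1.26-fold higher in 4D(+/+).

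The levels of fat markers were set beside it. The summed intensity of the 4 measured white fat markers, of 6 listed, was 2821 in 4B(-/-), 2983 in 4B(+/+), 833 in 4D(-/-), 3148 in 4D(+/+) and 993 in C57. It was thus lowest on the 2 arrays on which Rbp4 was lowest, but in the PDE4B pair it ran the other way, lower in 4B(-/-) where Rbp4 was higher. The sum of 2 brown fat markers did so too, at 713 in 4B(-/-), 1784 in 4B(+/+), 257 in 4D(-/-), 2242 in 4D(+/+) and 413 in C57. Within the white fat list 3 genes reached the floor, among them the fat cell hormone Adipoq at 468 to 2065, while the leptin gene Lep stayed at 14.0 to 15.2. These 3 genes did not all go the same way in the PDE4B pair. Adipoq and Cidec were lower in 4B(-/-), like the white fat sum, at 1689 and 187 against 1952 and 214 in 4B(+/+). Retn was higher in 4B(-/-), like Rbp4. It read 931 in 4B(-/-), 803 in 4B(+/+), 244 in 4D(-/-), 877 in 4D(+/+) and 236 in C57. This is the order of Rbp4 over the arrays. All 4 measured liver markers, of 5 listed, were below the floor on all arrays, with Alb between 23.2 and 32.2. The part of fat tissue in the Rbp4 values was not tested.

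Stra6, the membrane receptor that takes up retinol from Rbp4, read 33.2 on each of the 4 backcrossed arrays and 29.1 in C57. All values lie below the floor, and no fold is given.

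Of the enzymes that make retinoic acid, Rdh10, which oxidises retinol to retinal, read 661 in 4B(-/-), 645 in 4B(+/+), 560 in 4D(-/-), 656 in 4D(+/+) and 616 in C57. It was lowest in 4D(-/-), 1.17-fold below 4D(+/+). The other Rdh10 probe set read 228 on 4 arrays and 227 in 4D(-/-), a 1.01-fold span, so it places 4D(-/-) lowest too but by far less.

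Aldh1a1, a retinal dehydrogenase that completes the synthesis, read 12551 in 4B(-/-), 12737 in 4B(+/+), 13148 in 4D(-/-), 12132 in 4D(+/+) and 13039 in C57. The 5 arrays spanned 1.08-fold, the smallest range among the 6 genes over the floor. Aldh1a2, the retinal dehydrogenase known for the embryo and for mesothelium, read 183 in 4B(-/-), 184 in 4B(+/+), 160 in 4D(-/-), 148 in 4D(+/+) and 146 in C57. Both PDE4B lines were above the 2 PDE4D lines and C57, and 4B(+/+) stood 1.26-fold above C57. The summed intensity of the 5 mesothelial markers was 1543 in 4B(-/-), 1408 in 4B(+/+), 1221 in 4D(-/-), 1469 in 4D(+/+) and 1232 in C57. As for Rbp4, the sum was highest in 4B(-/-) and lowest in 4D(-/-) and C57. The Aldh1a2 order differed from it in that 4D(+/+), the array with the mesothelial sum second from the top, was second from the bottom for Aldh1a2. The mesothelial markers did not share 1 order. Msln read 309 in 4B(-/-), 370 in 4B(+/+), 186 in 4D(-/-), 418 in 4D(+/+) and 200 in C57, against the sum in the PDE4B pair. Upk3b was highest in 4B(-/-) at 412 and read 276 to 301 elsewhere. Upk1b lay at 618 to 692, lowest in 4B(+/+), and Lrrn4 at 90.1 to 107. Wt1 of that list was below the floor on all arrays, and the part of mesothelium was not tested.

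Aldh1a3, the remaining retinal dehydrogenase, has 3 probe sets, all below the floor, and they disagree. The brightest read 17.9 in 4B(-/-), 33.0 in 4B(+/+), 24.5 in 4D(-/-), 39.9 in 4D(+/+) and 18.7 in C57. Another was highest in 4B(-/-), at 26.2, and read 20.7 in 4D(-/-), 4D(+/+) and C57, while the last spanned only 14.9 to 18.3. No difference is drawn from these values.

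Cyp26b1, the hydroxylase that starts the removal of retinoic acid, was the gene of the set that differed. Its single probe set read 683 in 4B(-/-), 265 in 4B(+/+), 617 in 4D(-/-), 739 in 4D(+/+) and 519 in C57. The low array was the wild-type PDE4B line, which lay 1.96-fold below the next lowest array, while the other 4 arrays spanned 1.42-fold. Both knockouts were thus between the other wild types, 739 in 4D(+/+) and 519 in C57. Cyp26b1 was 2.58-fold higher in 4B(-/-) than in 4B(+/+), and 1.32-fold higher than in C57. It was 1.20-fold lower in 4D(-/-) than in 4D(+/+), and 1.19-fold higher than in C57. Against C57 it was 1.96-fold lower in 4B(+/+) and 1.42-fold higher in 4D(+/+).

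**Figure D2:**
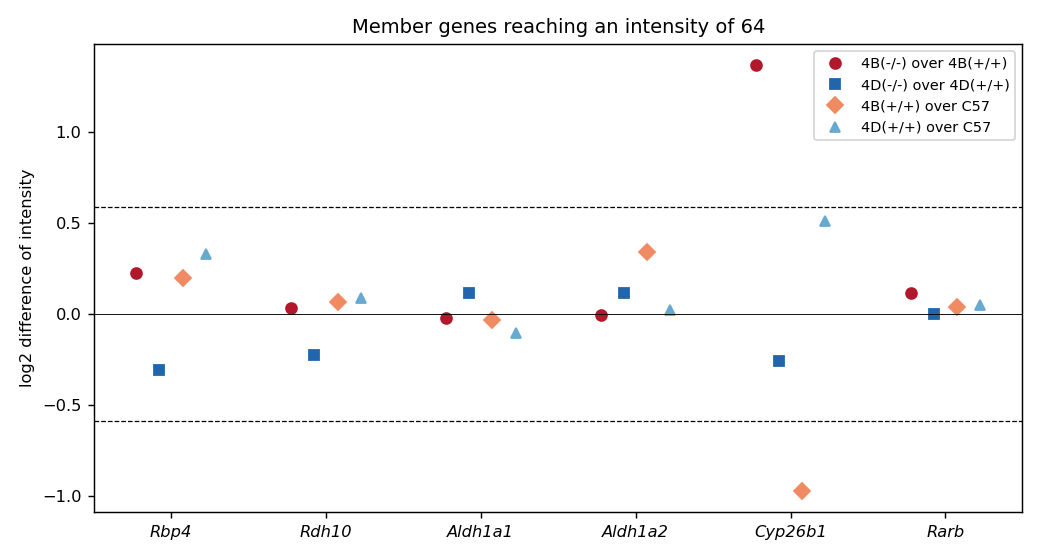
Log2 difference of intensity for the 6 retinoid genes that reached the floor, in 4 comparisons of 1 array each, with dashed lines at 1.5-fold either way. Only Cyp26b1 passes a line, at 1.37 in 4B(-/-) over 4B(+/+) and -0.97 in 4B(+/+) over C57, and these 2 points share the 4B(+/+) array.

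In counts, 1 of the 6 genes over the floor was higher and 0 were lower in 4B(-/-) than in 4B(+/+), where 0.383% of all 11500 genes were higher and 0.93% lower. In 4D(-/-), 0 of 6 were past 1.5-fold from 4D(+/+), where 1.1% of all genes were higher and 4.53% lower, 5.63% in all. In 4B(+/+), 1 of 6 was lower and 0 were higher than in C57, with 1.33% of all genes lower and 2.23% higher. In 4D(+/+), 0 of 6 were past 1.5-fold from C57, against 4.25% of all genes higher and 1.24% lower, 5.5% in all. The single count on the PDE4B side is Cyp26b1, which chose the set, so nothing is read from it. The median log2 difference of the 6 genes was 0.08 in 4B(-/-) over 4B(+/+) and -0.11 in 4D(-/-) over 4D(+/+). It was 0.05 in 4B(+/+) over C57 and 0.07 in 4D(+/+) over C57. The medians of all genes lay between -0.0032 and 0.0087. Cyp26b1 is among the 6, so nothing is read from these medians either. In 4D(-/-) over 4D(+/+) the other genes went both ways. Aldh1a1 and Aldh1a2 were at 0.12 and 0.11, Rarb at 0, and Rdh10 and Rbp4 at -0.23 and -0.31.

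The place of the low 4B(+/+) value among all genes was counted after the data were seen. The set was chosen by these same Cyp26b1 values, so the count only describes them and is no support. Cyp26b1 was the only gene of 11500, or 0.0087%, that lay at least 1.5-fold below each of the other 4 arrays in 4B(+/+). The next was 2310067E19Rik, at 1.40-fold. By the same count 0.339% of genes stood below every other array in 4B(-/-), 0.0957% in 4D(-/-), 0.0435% in 4D(+/+) and 0.4% in C57. The histogram of all genes places Cyp26b1 in a bin of its own. The gene rests on 1 probe set and 1 pool of RNA, and no second measurement of either was at hand.

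**Figure D3:**
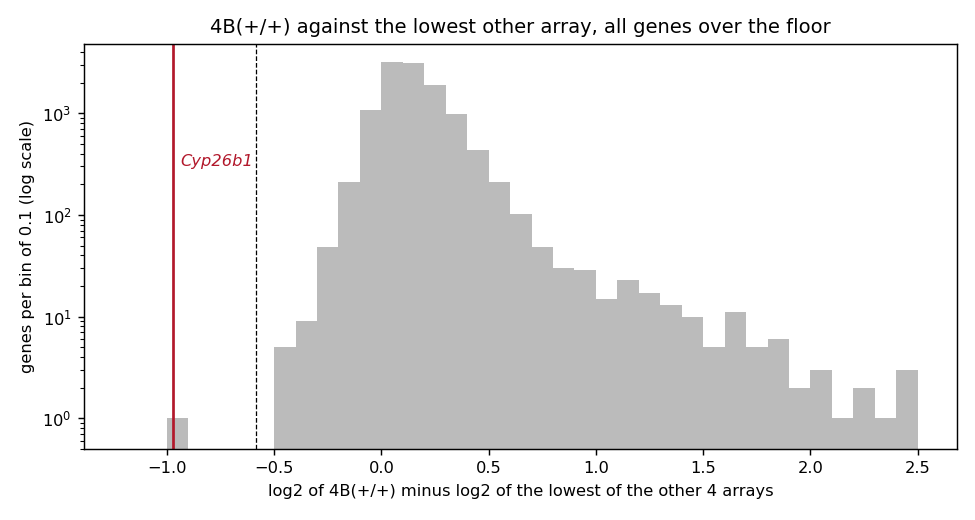
Number of genes (log axis, bins of 0.1) by the log2 intensity in 4B(+/+) minus that of the lowest of the other 4 arrays, for genes over the floor, drawn up to 2.5. Negative values mark genes lowest in 4B(+/+), the dashed line marks 1.5-fold, and Cyp26b1 lies at -0.97.

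The genes beside Cyp26b1 on chromosome 6 did not share the low value. For the 10 nearest genes to the left and the 10 to the right that reached the floor, by the RefSeq order of GRCm38.p6, the log2 intensity in 4B(+/+) minus the median of the other 4 arrays lay between -0.06 and 0.29, with a median of 0.07, and 0 of 20 were past 1.5-fold. For Cyp26b1 this difference was -1.29. Its nearest neighbours among genes over the floor, Zfp638 and Exoc6b, had 0.11 and -0.05. None of the 9 retinoid genes is on chromosome 4 or 13, where Pde4b and Pde4d lie.

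Marker lists of lung cell types were summed over the same arrays and set beside Cyp26b1. The summed intensity of the 5 endothelial markers was 12950 in 4B(-/-), 12632 in 4B(+/+), 12995 in 4D(-/-), 11678 in 4D(+/+) and 12896 in C57. The sum over 7 fibroblast and lipofibroblast markers was 22944 in 4B(-/-), 22381 in 4B(+/+), 22712 in 4D(-/-), 21200 in 4D(+/+) and 23283 in C57. In both lists all genes reached the floor and 0 were past 1.5-fold between 4B(-/-) and 4B(+/+). In 4B(+/+) over C57 the median log2 difference was -0.18 for the endothelial and -0.06 for the fibroblast list. The bright endothelial gene Cldn5 was higher in 4B(+/+), at 5066 against 4341 in C57, while Cdh5, Tek, Kdr and Pecam1 were lower. Of 18 lists of cell types and tissues, 0 had their lowest sum in 4B(+/+). The lowest sum was in 4B(-/-) for 2 lists, in 4D(-/-) for 6, in 4D(+/+) for 7 and in C57 for 3. A sum follows its brightest markers, and the liver genes were all below the floor, so nothing is read from this count. In 4B(+/+) the lists of neighbouring tissues were higher than in C57. Past 1.5-fold were 7 of 7 skeletal muscle genes, 3 of 3 white fat genes and 5 of 5 cartilage genes. Between 4B(-/-) and 4B(+/+), 7 of 7 skeletal muscle genes, 2 of 2 brown fat genes and 2 of 2 thyroid and parathyroid genes were lower, and 5 of 6 thymus and T-cell genes were higher. The thyroid and parathyroid genes shifted most, with a sum over 3 measured markers of 913 in 4B(-/-) and 9833 in 4B(+/+). The part of these tissues in the Cyp26b1 difference was not tested.

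**Figure D4:**
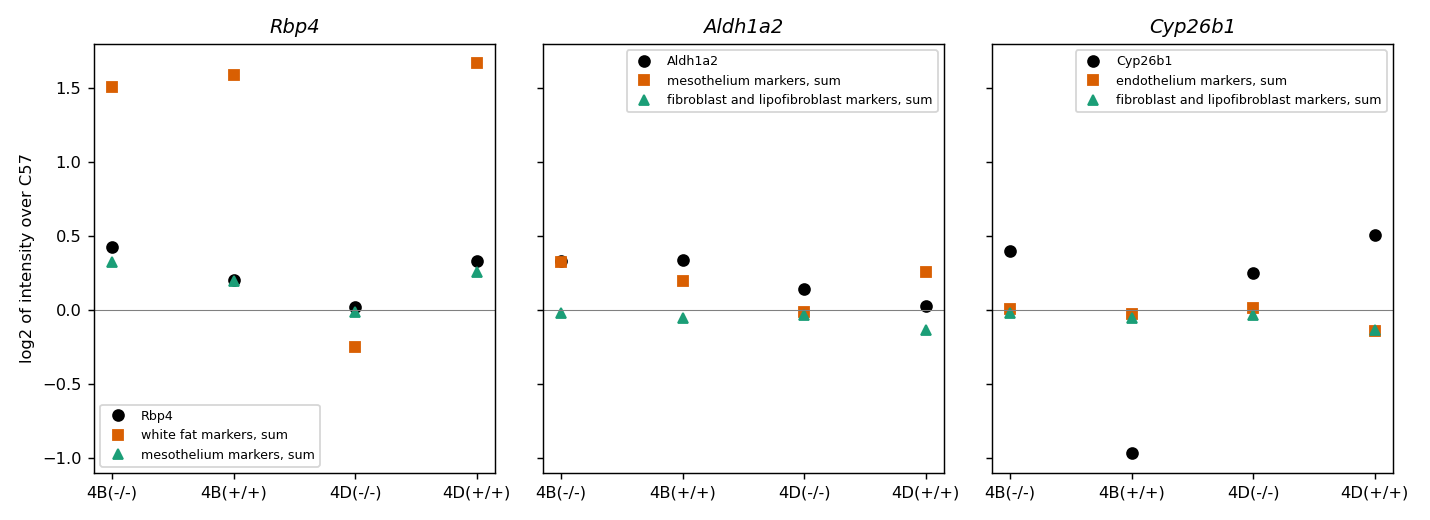
Log2 of the intensity over C57 for Rbp4, Aldh1a2 and Cyp26b1 (black circles) and for the summed intensity of 2 marker lists each (squares and triangles), in the 4 backcrossed lines, 1 array each. Rbp4 and the white fat sum are both lowest in 4D(-/-), and Cyp26b1 is at -0.97 in 4B(+/+), where the endothelial and fibroblast sums are close to C57.

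The genes whose profile over the 5 arrays was most like that of Cyp26b1 were AA467197, Tmem94, 2310067E19Rik, Cav3 and Ccnb2. Likeness was the root mean square difference between log2 profiles, each centred on its own mean over the 5 arrays. It was 0.33 for AA467197 and 0.38 for Ccnb2, the fifth, where the median over all 11499 other genes was 0.54. A gene that does not vary at all scores close to that median, so the median is no yardstick of likeness. Each of the 5 spanned less than 2-fold, where Cyp26b1 spanned 2.79-fold. Tmem94 had the highest Pearson coefficient of the 5, at 0.97 over 5 arrays, but spanned only 51.0 in 4B(+/+) to 72.4 in 4D(+/+). Among the 407 other genes that spanned at least 2-fold, the highest Pearson coefficient with Cyp26b1 was 0.64. The muscle caveolin gene Cav3 read 75.9 in 4B(-/-), 53.2 in 4B(+/+), 58.7 in 4D(-/-), 104 in 4D(+/+) and 65.0 in C57, and the cell cycle gene Ccnb2 read 79.4 in 4B(-/-), 49.7 in 4B(+/+), 76.9 in 4D(-/-), 62.4 in 4D(+/+) and 53.7 in C57. The 5 genes were picked for this profile. Tmem94, Cav3 and Ccnb2 are below the floor in 4B(+/+), so the order of these genes over the arrays rests on values near background.

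In the part of the pathway that binds retinoic acid, Crabp2, the protein that carries it to the receptors, read between 8.71 in 4D(-/-) and 9.60 in 4D(+/+), all below the floor. Rarb, a retinoic acid receptor whose own transcription retinoic acid is known to raise, read 147 in 4B(-/-), 135 in 4B(+/+), 136 in 4D(-/-), 136 in 4D(+/+) and 132 in C57. The 5 arrays spanned 1.11-fold, and the 2 PDE4D arrays held the same value. For Rarb, the array lowest for Cyp26b1, 4B(+/+), was 1.03-fold above C57 and below 4B(-/-) and both PDE4D arrays.

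The wider pathway was described with a list of 74 further genes of retinoid uptake, oxidation, clearance, binding, receptors and known targets, of which 68 were measured and 40 reached the floor. In 4B(-/-) over 4B(+/+), 0 of the 40 were higher or lower, with 1.31% of all genes past 1.5-fold. In 4D(-/-) over 4D(+/+), 2 were lower and 0 higher, with 4.53% of all genes lower. In 4B(+/+) over C57, 0 were past 1.5-fold, with 3.56% of all genes past it, and in 4D(+/+) over C57, 2 were higher and 0 lower, with 4.25% of all genes higher. The median log2 difference of the list was within 0.01 of that of all genes in each of the 4 comparisons. The shares past 1.5-fold, 5% of 40 on the PDE4D side, are near those of all genes.

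The 2 genes were the same in both comparisons that use the 4D(+/+) array, and both read higher there than in 4D(-/-) and C57. Rbp7, a cellular retinol-binding protein, read 32.9 in 4D(-/-), 77.8 in 4D(+/+), 29.2 in C57, 41.2 in 4B(-/-) and 39.9 in 4B(+/+). It passed the floor only through 4D(+/+), so its 2.37-fold lower value in 4D(-/-) and its 2.66-fold higher value in 4D(+/+) over C57 rest on values near background. Adh7, an alcohol dehydrogenase of stomach and other upper digestive epithelia that can oxidise retinol, read 207 in 4D(-/-), 430 in 4D(+/+), 265 in C57, 430 in 4B(-/-) and 353 in 4B(+/+). It was 2.08-fold lower in 4D(-/-) than in 4D(+/+) and 1.62-fold higher in 4D(+/+) than in C57. The high Adh7 value was not particular to 4D(+/+). In 4B(-/-) its log2 difference over C57 was 0.70, also past 1.5-fold, where 291 of 11500 genes were higher. Several lists of other tissues were lower in 4D(-/-) too. By count, 4D(-/-) was below 4D(+/+) by 1.5-fold in 3 of 3 white fat genes, 7 of 7 skeletal muscle genes and 3 of 4 genes of squamous and basal epithelium. Of the squamous genes, Krt13 and Trp63 are under the floor in 4D(-/-), so their folds rest on values near background. Macrophage markers went the other way, with 3 of 5 higher in 4D(-/-), and so did 1 of 5 cartilage genes. The summed squamous and basal intensity over 5 markers was 513 in 4D(-/-), 818 in 4D(+/+), 175 in C57, 279 in 4B(-/-) and 326 in 4B(+/+), and the part of these tissues was not tested.

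**Figure D5:**
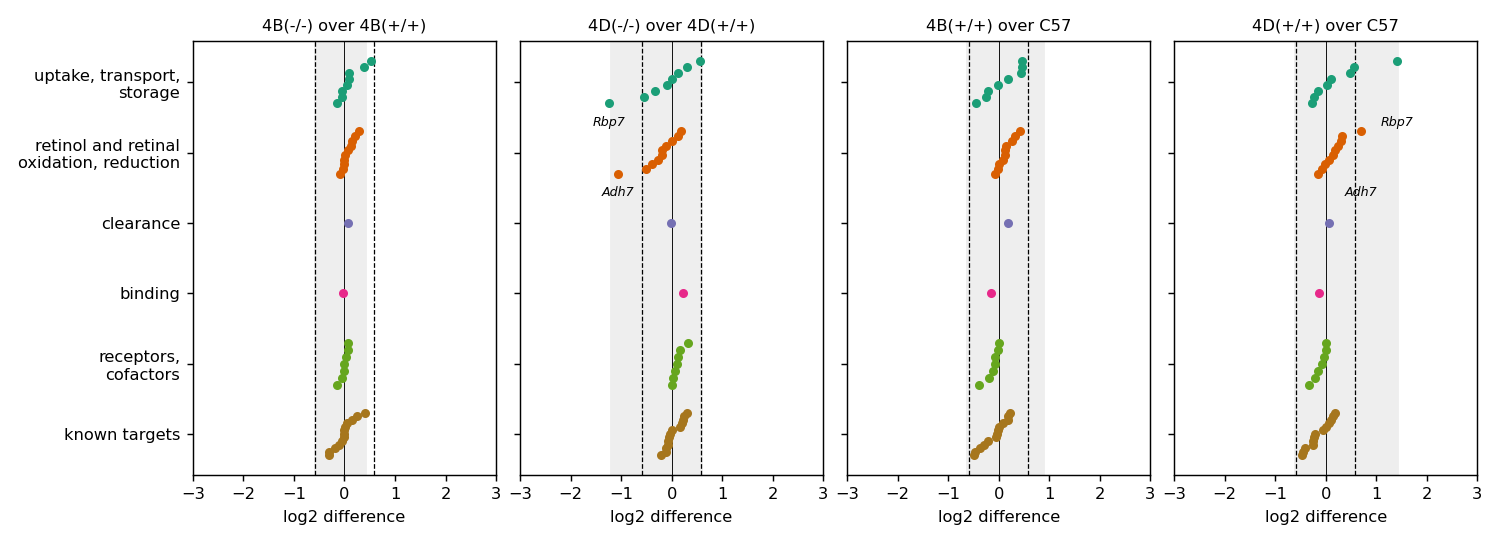
Log2 difference of the 40 pathway genes over the floor, by role, in 4 comparisons of 1 array each. Dashed lines mark 1.5-fold, and the grey band runs from percentile 1 to percentile 99 of all 11500 genes. Rbp7 and Adh7 are the named points past a line in the 2 comparisons with 4D(+/+), and no point passes one in the other 2.

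A few genes within 1.5-fold in each of the 4 comparisons are given for their roles, chosen after their values were seen. Lrat, which stores retinol as esters, read 2102 in 4B(-/-) and 1471 in 4B(+/+), with 1681 in 4D(-/-), 1779 in 4D(+/+) and 1745 in C57, so that 4B(-/-) was the highest array and 4B(+/+) the lowest, 1.43-fold apart. The endocytic receptor gene Lrp2 read 166 in 4B(-/-), 127 in 4B(+/+), 229 in 4D(-/-), 156 in 4D(+/+) and 175 in C57. Its highest array, 4D(-/-), stood 1.80-fold above its lowest, 4B(+/+). Nothing is read from the low 4B(+/+) values of Lrat and Lrp2, which were picked after their values were seen. Dhrs3, which reduces retinal back to retinol, read 1051 in 4B(-/-), 1000 in 4B(+/+), 1028 in 4D(-/-), 943 in 4D(+/+) and 901 in C57. Cyp26a1, the other measured gene of its family, stayed at 16.3 to 21.1, below the floor.

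The receptors over the floor were even over the arrays. Of the known targets over the floor, only Bhlhe40 and Meis2 spanned more than 1.5-fold. Most genes were even too, with 86.2% of all 11500 within 1.5-fold, so no contrast of targets with receptors is read. The receptor genes Rarg, Rxra and Rxrb spanned 1.05-fold, 1.05-fold and 1.03-fold, and Rara stayed below the floor at 34.6 to 42.6. Of 13 known retinoic acid targets over the floor, 0 were past 1.5-fold in any of the 4 comparisons, whose shares of all genes are given above. Set against C57 directly, 2 of 13 were lower in 4B(-/-), Bhlhe40 and Meis2, where 3.57% of all genes were lower, and 0 of 13 were past 1.5-fold in 4D(-/-), where 2.17% of all genes were. Bhlhe40, a transcriptional repressor that also belongs to the circadian clock, read 405 in 4B(-/-), 501 in 4B(+/+), 560 in 4D(-/-), 471 in 4D(+/+) and 648 in C57, a 1.60-fold span. Hoxa5, a homeobox gene of lung mesenchyme, read 569 in 4B(-/-), 576 in 4B(+/+), 606 in 4D(-/-), 606 in 4D(+/+) and 803 in C57, where C57 stood above the 4 backcrossed lines. Meis2, another homeobox gene, had the same array on top and spanned 1.51-fold, with 270 in 4B(-/-), 292 in 4B(+/+), 341 in 4D(-/-), 295 in 4D(+/+) and 407 in C57. Tgm2, the tissue transglutaminase, read 5453 in 4B(-/-), 5453 in 4B(+/+), 5958 in 4D(-/-), 4791 in 4D(+/+) and 5588 in C57.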

How the data were processed

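The authors deposited linear intensity values, 1 per probe set and array, and per the submitters' processing notes they used RMA, with no version, settings or genome build stated in these sources. Per the labels' protocols, RNA of 3 of 5 lungs per strain was mixed and 0.3 µg was labelled with a 3' IVT kit. Intensities were converted to log2 here. Of the probe sets, 34958 had a single symbol in the platform annotation and were used, leaving aside 932 with several symbols and 9211 without a symbol, with symbols updated to GRCm38.p6 through gene IDs. Differences, medians and counts were computed in Python 3.11.15 with pandas 2.3.3, and cyclic loess with limma 3.58.1. No test was run, since each group is 1 array, so that precision is limited by the number of arrays. Detection calls were not used. Counting was tested on simulated data. Named genes were all 9 retinoid genes, pathway genes past 1.5-fold and the 5 genes most like Cyp26b1. The genes and lists were chosen with earlier results of these data known. Alternatives were a 2-fold threshold, a floor of 32 and one at log2 7, each gene as the median over its probe sets, cyclic loess, median centring and other reference arrays.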

Additional observations from a re-analysis of the deposited data

Results flagged for a closer look

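In 5 of the 6 retinoid genes over the floor, the knockout differed from its wild type in opposite directions in the PDE4B and PDE4D lines, and none of these differences could be tested with 1 array per group. Opposite signs were also found in 51.3% of all 11500 genes over the floor, so the count says little about the retinoid genes. For Cyp26b1 the log2 difference was 1.37 in 4B(-/-) over 4B(+/+) and -0.26 in 4D(-/-) over 4D(+/+), which is 1.63 apart. For Rbp4 it was 0.22 in the PDE4B pair and -0.31 in the PDE4D pair, 0.53 apart. For Rdh10 it was 0.04 in the PDE4B pair and -0.23 in the PDE4D pair, 0.26 apart. For Aldh1a1 the PDE4B pair gave -0.02 and the PDE4D pair 0.12, a gap of -0.14. For Aldh1a2 the PDE4B pair gave -0.01 and the PDE4D pair 0.11, a gap of -0.12. Apart from the Cyp26b1 difference in the PDE4B pair, each of these log2 differences is within 1.5-fold. The signs also depend on the array compared with, since over C57 the values of 4D(-/-) were 0.25 for Cyp26b1 and 0.02 for Rbp4, and that of 4B(-/-) was 0.33 for Aldh1a2.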

How the results depend on the processing

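The direction of each retinoid gene called past 1.5-fold was kept under every alternative that was run. The Cyp26b1 difference for 4B(-/-) depended on the 4B(+/+) array: 1.37 on the log2 scale against it, 0.40 against C57 and 0.55 against the mean of the 3 wild types, neither past 1.5-fold. The count of retinoid genes past 1.5-fold was then 0 with either reference. With a floor of 32, which admits the dim Aldh1a3 and Stra6, it was 2 for 4B(-/-) over 4B(+/+), 1 for 4D(-/-) over 4D(+/+), 2 for 4B(+/+) over C57 and 1 for 4D(+/+) over C57. It was 0 for 4B(+/+) over C57 at 2-fold, and 1 for 4D(+/+) against the mean of C57 and 4B(+/+). Pathway genes past 1.5-fold numbered 3 for 4B(-/-) over C57. For 4D(-/-) they numbered 1 with a floor at log2 7 and 0 over C57. For 4D(+/+) over C57 they numbered 1 at 2-fold, with a floor at log2 7, with the median of probe sets and with the mean reference. All genes past the threshold numbered at 2-fold 47 for 4B(-/-) and 198 for 4D(-/-) over their wild types, and 120 for 4B(+/+) and 231 for 4D(+/+) over C57. Over C57 they numbered 701 for 4B(-/-) and 249 for 4D(-/-), which was 194 against the mean of the wild types. With the mean of C57 and the other wild-type line they numbered 142 for 4B(+/+) and 311 for 4D(+/+). Fewer calls at 2-fold follow from the threshold, and the cause of the other shifts was not tested. Ranking likeness to Cyp26b1 by Pearson correlation was limited to genes spanning 2-fold, which none of the 5 named genes does, so it says nothing about them. No paired analysis was possible because each strain has 1 array. Leaving out an array was not possible within a group for the same reason. Detection is the limit for Stra6, Aldh1a3 and Crabp2, whose signals are near background.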
